A study of Mus musculus with 8 samples.

Results

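The Fc gamma receptors of mouse myeloid cells bind the constant part of immunoglobulin G. The genes described here are the 4 receptor genes Fcgr1, Fcgr2b, Fcgr3 and Fcgr4, and Fcer1g, which encodes the signaling chain of the activating receptors. They were taken as the rows whose Ensembl identifiers carry these symbols. All 5 were found among the 55450 genes of the first expression table and among the 24848 genes of the second. Messenger RNA came from cultures that the cell type label calls dendritic cells grown from bone marrow, while the sample titles use an abbreviation usual for macrophages. The donors were mice with dry eye of the Sjögren's syndrome type, whose strain, age and sex are not given in the sources used here. Vehicle cultures received phosphate-buffered saline, and treated cultures received recombinant S100A8/A9, a pair of calcium-binding proteins released by myeloid cells, at a dose and for a time not given in the sources used here. Each group held 4 libraries. Replicates 1 to 3 of both groups share a table and carry the tests. Replicate 4 of both groups comes from a second table that was made separately. In the results its vehicle and S100A8/A9 libraries are therefore compared only with each other. The check for outlying samples and the fits over all 8 libraries also set replicate 4 beside the others. The labels do not say that replicates came from separate animals or cultures, so the p-values measure only the spread between these libraries, which may be technical. Nor do the labels say what a replicate number marks. Libraries of the same number are called partners of a pair here, which is an assumption.

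Fc gamma receptors let phagocytes and dendritic cells take up immune complexes and decide whether that uptake activates or restrains the cell. Fcgr1 encodes the high-affinity receptor, and Fcgr3 and Fcgr4 encode activating receptors of lower affinity. These activating receptors have no activation motif of their own and depend on the gamma chain, product of Fcer1g, for stable surface expression and for signaling through an immunoreceptor tyrosine-based activation motif (ITAM), which recruits the kinase SYK after phosphorylation by SRC family kinases. Fcgr2b encodes the inhibitory receptor, whose cytoplasmic immunoreceptor tyrosine-based inhibition motif (ITIM) recruits the lipid phosphatase SHIP1. On dendritic cells the balance between the activating receptors and Fcgr2b is known to set how immune complexes affect maturation.

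The motifs that separate activation from inhibition are shown first, since they divide the members into their roles. They are coding sequence of the GENCODE transcripts Fcer1g-201 and Fcgr2b-201, and capitals mark the tyrosine codons. The ITAM-coding stretch of Fcer1g covers 45 bases of exons 4 and 5 on the reverse strand, within chr1:171229889-171230072 (GRCm38), and the ITIM-coding stretch of Fcgr2b covers 18 bases of exon 8 on the reverse strand, at chr1:170961071-170961088.
Fcer1g ITAM: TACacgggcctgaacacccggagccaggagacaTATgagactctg
Fcgr2b ITIM: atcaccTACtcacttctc
The ITAM pattern matched once among the 5 coding sequences, in Fcer1g. The ITIM pattern also matched 2 times in Fcgr1 and 1 time each in Fcgr4 and Fcer1g, and such a match is a description of letters, not a site.

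A second pair of sequences bears on how well 2 of the genes can be told apart. The coding sequences of Fcgr2b and Fcgr3 were identical at 678 of 782 aligned bases (86.7%), and they shared a run of 129 identical bases. The run lies across exons 3 and 4 of both genes, within chr1:170966654-170968101 for Fcgr2b and chr1:171054147-171057812 for Fcgr3, both on the reverse strand. It is shown with 20 bases on each side, and capitals mark the 2 bases that differ.
Fcgr2b: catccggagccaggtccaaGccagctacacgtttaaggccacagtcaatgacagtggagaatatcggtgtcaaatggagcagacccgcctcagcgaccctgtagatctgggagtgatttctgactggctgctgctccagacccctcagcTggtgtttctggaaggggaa
Fcgr3: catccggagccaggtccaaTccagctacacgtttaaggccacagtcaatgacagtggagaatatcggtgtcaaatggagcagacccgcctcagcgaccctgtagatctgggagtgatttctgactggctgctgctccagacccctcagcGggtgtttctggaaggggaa
The library fragments were 100 to 200 bases long per the labels' protocols, so fragments from such a stretch could come from either gene, and how the authors' counting treated them is not given in the sources used here. No other pair of the 4 receptors shared more than 14 identical bases in a row. Identity was 66.4% for Fcgr3 and Fcgr4, 67.3% for Fcgr2b and Fcgr4, and between 64.1% and 68.6% for Fcgr1 against the others. By this comparison, values of Fcgr2b and Fcgr3 are less certain as single genes than those of Fcgr1 and Fcgr4. Fcer1g was not aligned, and no receptor was compared with genes outside this set.

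In GRCm38, 4 of the 5 genes lie near each other on chromosome 1. Fcgr2b (ENSMUSG00000026656) spans 170958617 to 170976547, Fcgr4 (ENSMUSG00000059089) 171018920 to 171029761, Fcgr3 (ENSMUSG00000059498) 171051174 to 171064935 and Fcer1g (ENSMUSG00000058715) 171229572 to 171234365. Fcgr1 (ENSMUSG00000015947) lies on chromosome 3, from 96282909 to 96293969. Fcgr4 is on the forward strand and the other 4 are on the reverse strand. Exons of Fcgr2b share 155 bases with the antisense gene Gm38204, and as no strand marking is stated, reads from these genes cannot be told apart there.

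Values are fragments per kilobase of transcript, scaled to library size (FPKM), and replicates 1 to 3 had between 11180 and 11487 genes that reached 1 FPKM. Their depth is unknown, while the low values of replicate 4 implied about 31900000 reads with vehicle and 33400000 with S100A8/A9. The cultures carried transcripts of genes from both the macrophage and the dendritic cell marker lists. Over all 6 libraries of the first table the macrophage genes Adgre1 and Csf1r were at 26.2 to 53.0 FPKM and 109 to 213 FPKM, and the dendritic cell genes Itgax and Ccr7 at 47.2 to 66.9 FPKM and 141 to 227 FPKM, whereas Flt3 reached at most 0.921 FPKM and Cd209a was listed at 0. Of the 12 markers in the dendritic cell list 5 stayed under 1 FPKM in all 6 libraries, namely Flt3, Cd209a, Dpp4, Xcr1 and Clec9a. Zbtb46 of the same list was at 2.13 to 3.62 FPKM. B cell markers, of interest because B cells carry Fcgr2b, summed to 2.28 to 3.51 FPKM in vehicle libraries and 2.73 to 4.39 FPKM in treated libraries over 8 genes, and mast cell and basophil markers, of interest because those cells use the gamma chain, summed to 2.43 to 8.37 FPKM and 3.12 to 5.82 FPKM over 10 genes, with Mcpt4 listed at 0. In bulk RNA, fewer cells of a type and less RNA per cell cannot be told apart.

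The level of the 5 genes followed 1 order in all 6 libraries of replicates 1 to 3. With vehicle, Fcer1g was highest at 193 ± 10.4 FPKM (SD, n = 3), followed by Fcgr3 at 148 ± 8.24, Fcgr2b at 93.5 ± 15.3, Fcgr4 at 23.1 ± 3.23 and Fcgr1 at 9.07 ± 3.01 FPKM (SD, n = 3 each). By mean vehicle level Fcer1g ranked 157 and Fcgr3 216 among the 55450 listed genes, Fcgr2b ranked 350, Fcgr4 1732 and Fcgr1 4552. Neighbors in this order did not overlap between libraries in either group. In replicate 4 the top 2 changed places, with Fcgr3 at 307 and 300 FPKM and Fcer1g at 293 and 273 FPKM with vehicle and S100A8/A9.

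**Figure D1:**
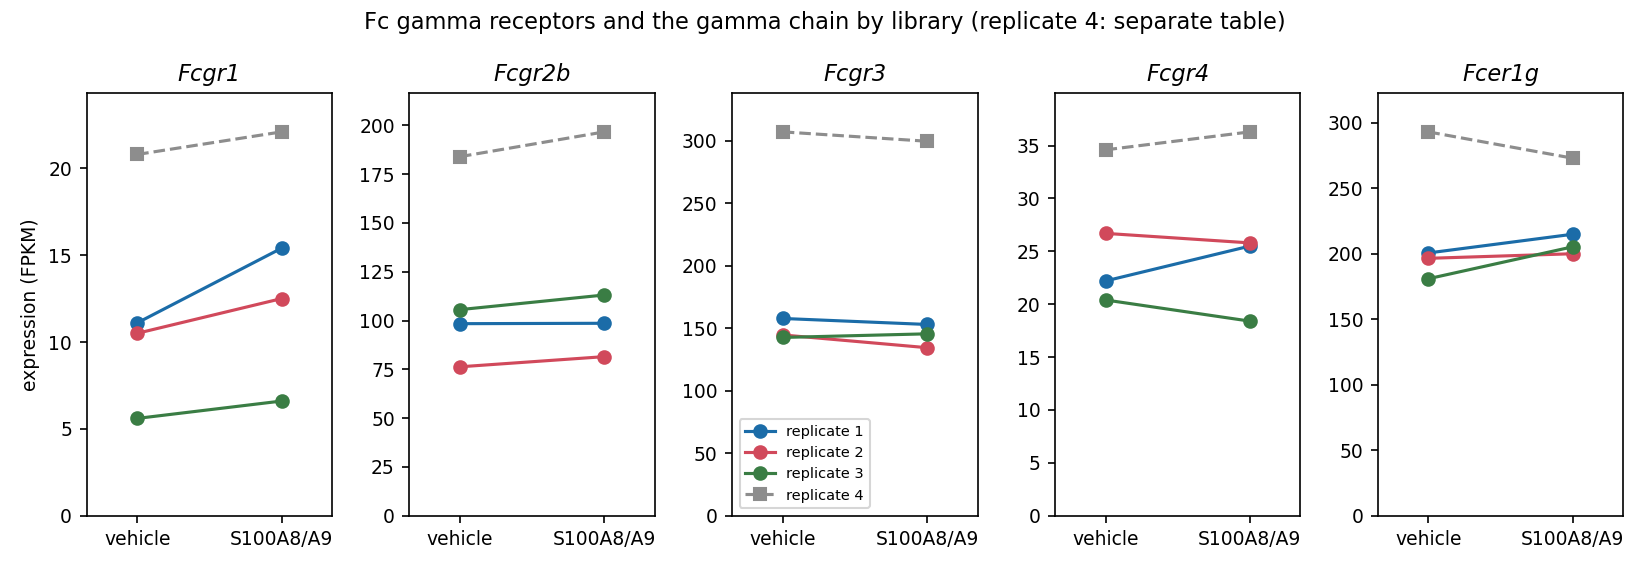
Expression in FPKM (vertical axes from 0, 1 scale per gene) of the 5 genes in each library, with a line joining the vehicle and S100A8/A9 libraries of the same replicate number. Squares and broken lines are replicate 4, from the separately made table. All 4 Fcgr1 lines slope upward, while the lines of Fcgr3 and Fcgr4 go in both directions.

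None of the 5 genes changed past the threshold. In limma on log2(FPKM + 1) over 11387 genes, with Benjamini-Hochberg adjustment over all of them, 0 of the 5 members passed the 0.05 threshold on adjusted p, against 0% of all genes tested. At an unadjusted p under 0.05 there were 0 members without the block, against 3.02% of all genes. With the replicate number as a block, which compares libraries within pairs, 0 of 5 passed again, against 0.518% of all genes (0.501% higher and 0.0176% lower with S100A8/A9). There, 1 member, Fcgr1, was at an unadjusted p under 0.05 and higher, against 7.97% of all genes in either direction and 6.13% higher. The vehicle and S100A8/A9 libraries overlapped for all 5 members, while 6.65% of all genes did not overlap. The median log2 difference was 0.065 over the 5 members and 0.025 over all genes tested.

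Fcer1g, the signaling chain of the activating receptors, stood at 201, 197 and 181 FPKM with vehicle in replicates 1, 2 and 3. With S100A8/A9 it stood at 215, 200 and 205 FPKM. Each treated library was above its own vehicle partner, by 1.07-fold, 1.02-fold and 1.13-fold, but the groups overlapped, since vehicle replicate 1 lay above treated replicate 2. The log2 difference was 0.10 ± 0.099 (SE), the 95% interval ran from -0.13 to 0.33 and limma's adjusted p was 1 (0.755 in the blocked fit). Replicate 4 went the other way, from 293 to 273 FPKM, or 0.931-fold. About 8173 and 7974 reads lay behind those values, which gives a ratio between 0.903 and 0.961 from counting error alone (exact binomial, 95%). Mates of a pair may have been counted separately, which would make such intervals too narrow, and they say nothing about the spread between cultures.

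Fcgr1, the high-affinity receptor, was the member with the largest difference. It was at 11.1, 10.5 and 5.61 FPKM with vehicle in replicates 1, 2 and 3 and at 15.4, 12.5 and 6.62 FPKM with S100A8/A9. The treated library was the higher one in each pair, by 1.38-fold, 1.19-fold and 1.18-fold, while replicate 3 was low in both groups, so the groups overlapped. The geometric mean of the within-pair ratios was 1.25. In replicate 4 Fcgr1 went from 20.8 to 22.1 FPKM, a ratio of 1.06 on 1718 and 1908 reads with a counting interval from 0.993 to 1.13, which includes no difference. The log2 difference over replicates 1 to 3 was 0.29 ± 0.33 (SE), the 95% interval ran from -0.48 to 1.06 and limma's adjusted p was 1. Blocking on the replicate number narrowed the interval to between 0.10 and 0.49, and limma's adjusted p became 0.349 (unadjusted p = 0.00985). Leaving out single libraries moved the difference between 0.01, without vehicle replicate 3, and 0.61, without S100A8/A9 replicate 3. Such omissions leave the replicate numbers unequal between the groups. With whole pairs left out in the blocked fit, the difference was 0.219 without replicate 1, 0.32 without replicate 2 and 0.335 without replicate 3.

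The spread of Fcgr1 between replicate numbers was wider than any difference within a pair. Most macrophage markers were also highest in replicate 1 and lowest in replicate 3, and their mean log2(FPKM + 1) over 12 genes was 6.94, 6.18 and 5.64 in vehicle replicates 1, 2 and 3 and 7, 6.24 and 5.75 in the treated ones. Their summed level was 4060 to 6440 FPKM in vehicle libraries and 4350 to 6610 FPKM in treated libraries, and none of the 12 was listed at 0. Cd14 went the other way, at 94.1, 194 and 278 FPKM in vehicle libraries and 109, 211 and 347 FPKM in treated ones, and Itgam was nearly level at 142 to 153 FPKM. Their part in the level of Fcgr1 was not tested. The marker sum was higher in the treated library in each of the 3 pairs and lower in replicate 4. Most of the sum was Lyz2. It went from 5010, 3790 and 3130 FPKM to 5150, 4050 and 3290 FPKM in replicates 1, 2 and 3. In replicate 4 Lyz2 alone went from 26700 to 23900 FPKM. Of the 12 markers, 8, 7 and 10 were higher with treatment in replicates 1, 2 and 3. In replicate 4, 7 of the 12 markers were higher with treatment and their median log2 difference was 0.02.

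Fcgr4, the activating receptor for immunoglobulin G2 subclasses, did not move in a common direction. It was at 22.2, 26.7 and 20.4 FPKM with vehicle in replicates 1, 2 and 3 and at 25.5, 25.8 and 18.4 FPKM with S100A8/A9. Replicate 1 was higher with treatment, by 1.15-fold, replicates 2 and 3 were at 0.969-fold and 0.902-fold, and the groups overlapped. The log2 difference was 0.00 ± 0.16 (SE), the 95% interval ran from -0.38 to 0.38 and limma's adjusted p was 1, and the block narrowed the interval to between -0.19 and 0.20. Its sign turned with each of the other scalings of the libraries. Replicate 4 gave 34.6 and 36.3 FPKM, a ratio of 1.05 with a counting interval from 0.975 to 1.13.

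Fcgr3, the most abundant receptor, was at 158, 145 and 143 FPKM in vehicle libraries and at 153, 135 and 146 FPKM in treated libraries in replicates 1, 2 and 3. Treated libraries were lower in replicates 1 and 2 and higher in replicate 3, with ratios of 0.97, 0.93 and 1.02, and the groups overlapped. The log2 difference was -0.04 ± 0.10 (SE), the 95% interval ran from -0.28 to 0.20 and limma's adjusted p was 1, against an interval from -0.17 to 0.09 with the block. In replicate 4 the ratio was 0.976 on 17013 and 17389 reads, with a counting interval from 0.955 to 0.997.

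Fcgr2b, the inhibitory receptor, was at 98.4, 76.3 and 106 FPKM in vehicle libraries and at 98.6, 81.5 and 113 FPKM in treated libraries. Replicate 2 was low in both groups, so the groups overlapped. The within-pair ratios were 1.00, 1.07 and 1.07, and replicate 4 also gave 1.07, from 184 to 197 FPKM, on 33971 and 38039 reads with a counting interval from 1.05 to 1.08. The log2 difference over replicates 1 to 3 was 0.06 ± 0.17 (SE), the 95% interval ran from -0.33 to 0.46 and limma's adjusted p was 1 (0.853 in the blocked fit, where the interval ran from -0.07 to 0.20). Over replicates 1 to 3, Fcgr1, Fcgr2b and Fcer1g, 3 of the 5 members, were higher with S100A8/A9 in each of the 3 pairs, as were 19.4% of all genes tested. By contrast, 0 members were lower in each pair, against 9.62% of all genes. Of these 3, Fcgr1 and Fcgr2b were higher in replicate 4 as well. Over all genes tested, 48.4%, 51.6% and 66.7% were higher with S100A8/A9 in replicates 1, 2 and 3. Their median log2 differences were -0.01, 0.01 and 0.08.

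**Figure D2:**
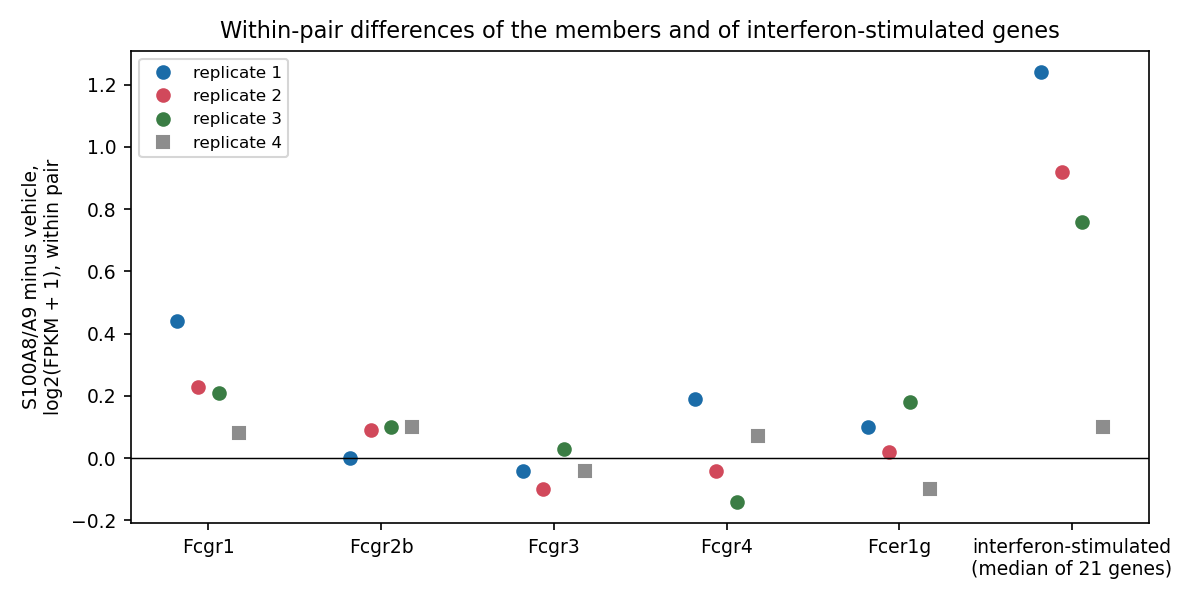
Difference in log2(FPKM + 1), S100A8/A9 minus vehicle, within each replicate number for the 5 members and, at the right, the median over 21 interferon-stimulated genes. Circles are replicates 1 to 3 and squares replicate 4. Fcgr1 lies between 0.08 and 0.44 and Fcgr4 between -0.14 and 0.19. The interferon-stimulated median lies between 0.76 and 1.24 in replicates 1 to 3 and at 0.10 in replicate 4.

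The share of each receptor in the summed FPKM of all 4 shows the balance between activating and inhibitory transcripts. The sum was 258 to 290 FPKM in vehicle libraries and 254 to 293 FPKM in treated libraries in replicates 1 to 3. Fcgr3 made up 54.5%, 56.0% and 52.0% of it in vehicle libraries and 52.3%, 52.9% and 51.3% in treated libraries, so its share was lower in each treated library than in its partner, and in replicate 4 it went from 56.2% to 54.0%. Fcgr1 made up 3.84%, 4.05% and 2.04% in vehicle libraries and 5.26%, 4.91% and 2.33% in treated libraries, and 3.81% and 3.98% in replicate 4, so its share was the higher one in each of the 4 treated libraries. Fcgr2b held 34.0%, 29.6% and 38.5% in vehicle libraries and 33.7%, 32.0% and 39.9% in treated libraries. The shares of Fcgr1 and Fcgr2b spread more widely between replicates of a group than within any pair, and no test was made of the shares.

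Summed FPKM of the 3 activating receptors stood at 1.94, 2.38 and 1.60 times that of Fcgr2b in the vehicle libraries, and at 1.97, 2.12 and 1.51 times in the treated libraries. It was nearly level in replicate 1 and lower with treatment in replicates 2 and 3, and it went from 1.97 to 1.82 in replicate 4. Fcer1g was at 1.05, 1.08 and 1.07 times the 3 summed activating Fc gamma receptors in vehicle libraries and 1.11, 1.16 and 1.20 times in treated libraries. In replicate 4 that ratio was 0.808 and 0.762. It leaves out other receptors that use the gamma chain, such as Clec4n at 281 to 395 FPKM in replicates 1 to 3. Because Fcgr2b and Fcgr3 share long identical stretches, these ratios carry the uncertainty of both genes.

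**Figure D3:**
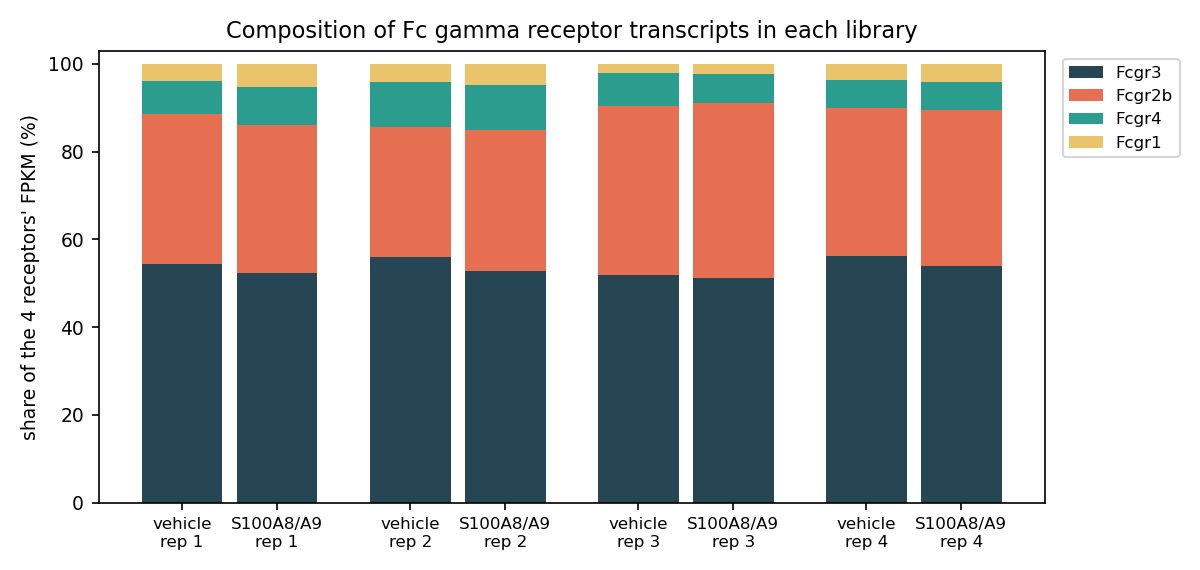
Share of each receptor gene in the summed FPKM of Fcgr1, Fcgr2b, Fcgr3 and Fcgr4 (percent, stacked from 0) in the 8 libraries, paired by replicate number. Fcgr3 takes 51.3% to 56.2% in each library and Fcgr1 2.04% to 5.26%.

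Fcgr1 and Fcgr4 are known to be inducible by interferon, and the RefSeq promoters of the members (GRCm38.p6) were searched over the 250 bases before the start site on both strands. Of 3 motifs, TTCNNNGAA, the core of sites for interferon-activated STAT dimers, was in 7.02% of 32851 promoter windows of this length, a pair of GAAA separated by any 2 bases, an interferon response element core, in 2.98%, and GAGGAA, a core bound by the myeloid factor PU.1, in 23.3%. The Fcgr1 window lies on the reverse strand at chr3:96293970-96294219 and the Fcgr4 window on the forward strand at chr1:171018676-171018925. They are shown because they were the only members with a match to 1 of the interferon-related motifs. Capitals mark the matches, which do not overlap each other.
Fcgr1: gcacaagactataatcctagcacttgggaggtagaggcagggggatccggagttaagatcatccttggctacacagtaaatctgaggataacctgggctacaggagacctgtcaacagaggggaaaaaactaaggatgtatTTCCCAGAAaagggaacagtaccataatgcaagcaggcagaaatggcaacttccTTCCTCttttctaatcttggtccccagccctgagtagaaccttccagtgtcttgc
Fcgr4: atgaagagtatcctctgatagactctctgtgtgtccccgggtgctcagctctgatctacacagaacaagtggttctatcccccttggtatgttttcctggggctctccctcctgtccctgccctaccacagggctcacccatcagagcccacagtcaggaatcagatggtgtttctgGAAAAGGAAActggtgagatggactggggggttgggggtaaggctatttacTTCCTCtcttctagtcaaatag
In Fcgr1 the capitals mark TTCNNNGAA from base 109 to 101 before the start and the reverse complement of GAGGAA from base 55 to 50. In Fcgr4 they mark the pair of GAAA from base 73 to 64 and the reverse complement of GAGGAA from base 22 to 17. Both listed start sites of Fcgr3 had 1 match to GAGGAA, and the windows of Fcgr2b and Fcer1g had no match to any of the 3. A match or its absence in this window says nothing about binding.

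Beside these windows stand the values of interferon-stimulated genes, of which 20 were higher in the treated library of each of the 3 pairs, against 19.4% of all genes. Of 21 tested genes in a reference list, 15 rose with the replicate block, 0 fell and 6 did not pass, against 0.501% of all genes called higher, and 0 passed without the block. These calls depend on the scaling and on the libraries used. The blocked fit called 59 genes in all, but 3 after each of 3 other scalings and 5 without replicate 3. With replicate 4 added, the blocked fit over all 8 libraries called 0 genes. The list's median log2 difference was 1.02, and the list was not tested against the members. Ifit1, an RNA-binding antiviral gene, went from 9.42, 9.93 and 4.65 FPKM to 36.1, 32.6 and 13.8 FPKM (limma's blocked adjusted p = 0.00917). Usp18, a negative regulator of interferon receptor signaling, Oasl1 and Rsad2 were called as well, with log2 differences of 1.19, 1.33 and 1.48 and blocked adjusted p-values from limma of 0.00917, 0.0228 and 0.0228. By pair, the list's median difference was 1.24, 0.92 and 0.76 in replicates 1, 2 and 3. In the same pairs the difference of Fcgr1 was 0.44, 0.23 and 0.21 and that of Fcgr4 was 0.19, -0.04 and -0.14. In replicate 4 all were small on this scale, at 0.10 for the list, 0.08 for Fcgr1 and 0.07 for Fcgr4. The scale understates changes of low genes, and Ifit1, Oasl1 and Rsad2 were at 1.15, 1.19 and 2.1 FPKM there with vehicle. Their FPKM ratios in replicate 4 were 1.56, 1.78 and 1.23, and that of Usp18 was 0.872. A part of interferon in the level of either receptor gene was not tested.

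The machinery downstream of the activating receptors was present and did not change past the threshold. All 21 genes of that list were tested, and 0 were called in limma without the block or with it (0.518% of all genes). Their median log2 difference was 0.022, and 2 genes of the list, both higher, were at an unadjusted p under 0.05 with the block, where 6.13% of all genes were that low and higher. Pik3cd, a catalytic subunit of phosphoinositide 3-kinase, went from 22.3, 20.4 and 20.2 FPKM to 25.3, 22.9 and 24.1 FPKM (limma's blocked adjusted p = 0.444).

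Syk, the kinase recruited by the ITAM, was at 85.1, 92.8 and 102 FPKM in vehicle libraries and 85.6, 91.7 and 111 FPKM in treated libraries. Among 12 genes of the inhibitory arm 0 were called in limma with or without the block, against 0.518% of all genes with it. In the blocked fit 0 were at an unadjusted p under 0.05, against 7.97% of all genes. The median log2 difference of this arm was 0.057. Inpp5d, which encodes SHIP1, was at 41.3, 39.9 and 37.9 FPKM in vehicle libraries and 38.7, 37.0 and 43.2 FPKM in treated libraries. The 2 genes with the smallest p-values in this arm were Dok1, an adaptor, and Ptpn6, the phosphatase SHP-1, with log2 differences of 0.18 and 0.14 and blocked adjusted p-values from limma of 0.66 and 0.714. Syk and Inpp5d were chosen as the direct partners of the members after their values were seen.

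Other receptors for immunoglobulins were mostly low. Of 13 such genes 4 passed the filter on low values, and 0 were called in limma with or without the block. With the block, 0.518% of all genes were called. There, 1 of the 4, Trim21, was at an unadjusted p under 0.05 and higher, against 6.13% of all genes. Trim21, a cytosolic antibody receptor and ubiquitin ligase that interferon also induces, was at 3.65, 3.46 and 3.13 FPKM in vehicle libraries and 5.61, 4.96 and 6.28 FPKM in treated libraries. The groups did not overlap, as was so for 4.71% of all genes in that direction, and its log2 difference of 0.58 exceeded that of every member, yet limma's adjusted p was 0.736 without the block and 0.117 with it. In replicate 4 Trim21 was 0.928-fold. B2m, a partner chain of the neonatal Fc receptor and of MHC class I, was 1.14-fold, 1.08-fold and 1.05-fold in the 3 pairs and 0.975-fold in replicate 4 (limma's blocked adjusted p = 0.676). Fcer1a and Ms4a2, which join the gamma chain in the mast cell receptor for immunoglobulin E, stayed at or under 0.485 FPKM and 0.305 FPKM in replicates 1 to 3.

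A further list held 13 genes, most of them receptors that signal through the gamma chain, with adaptors of similar function. Of its 9 tested genes 0 were called in limma with or without the block, against 0.518% of all genes with it. In the blocked fit 2 were at an unadjusted p under 0.05, both higher, against 6.13% of all genes. The median log2 difference of the list was 0.10. Clec4e, the glycolipid receptor Mincle, was the closest to the threshold, at 20.5, 24.9 and 38.5 FPKM in vehicle libraries and 31.3, 35.6 and 49.8 FPKM in treated libraries. Each pair was higher with treatment, by 1.53-fold, 1.43-fold and 1.29-fold, as was replicate 4 by 1.39-fold, and limma's blocked adjusted p was 0.0531. Its neighbor and partner Clec4d was 1.12-fold, 1.18-fold and 1.06-fold (limma's blocked adjusted p = 0.502). Clec4e was lowest in replicate 1 and highest in replicate 3, the reverse of Fcgr1.

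Genes of the effector steps that follow receptor engagement also gave no call. None of 17 genes of phagocytic actin machinery and none of 7 NADPH oxidase genes passed in limma with or without the block. With it, 0.518% of all genes passed. The median log2 differences of these lists were 0.043 and 0.069. In the blocked fit 2 of each list were at an unadjusted p under 0.05, all of them higher, against 6.13% of all genes. Actr2 and Actr3, subunits of the actin-branching ARP2/3 complex, had log2 differences of 0.14 and 0.15 and blocked adjusted p-values from limma of 0.548 and 0.569. Cybb, the catalytic subunit of the phagocyte oxidase, was at 116, 134 and 145 FPKM in vehicle libraries and 152, 148 and 159 FPKM in treated libraries (limma's blocked adjusted p = 0.401). Ncf4, a cytosolic subunit of the same oxidase, had a log2 difference of 0.14 and a blocked adjusted p from limma of 0.585.

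**Figure D4:**
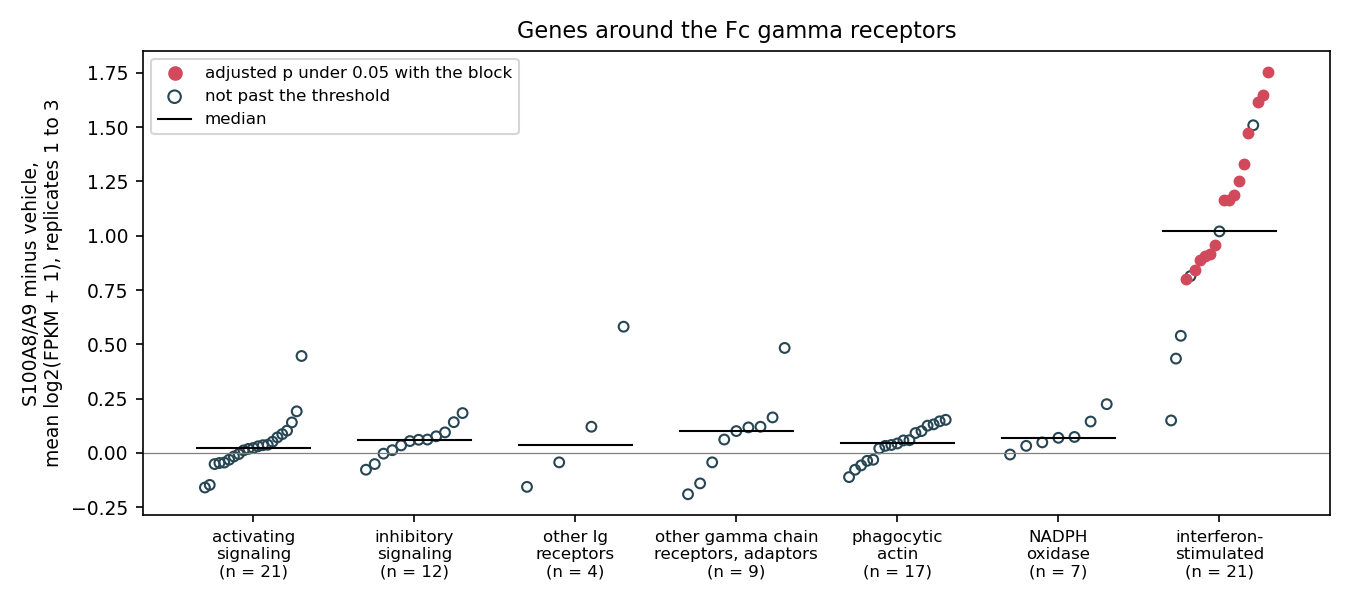
Mean difference in log2(FPKM + 1) over replicates 1 to 3, S100A8/A9 minus vehicle, for the tested genes of 7 lists, ordered within each list, with the list's median as a line. Filled points passed the threshold in the blocked fit and open points did not; the 15 filled points are all interferon-stimulated genes.

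The members did not share 1 pattern over the 6 libraries of replicates 1 to 3. Fcgr4 followed Fcgr1 (Pearson r = 0.81 over 6 libraries) and ran opposite to Fcgr2b (r = -0.87), while Fcgr3 was at -0.13 with Fcgr4 and at 0.38 with Fcgr2b. These values describe 6 libraries that share 3 replicate numbers, and many genes fit such a pattern closely. Of 6372 other genes averaging 5 FPKM or more, 115 had r over 0.9 with Fcgr1, 96 with Fcgr2b, 58 with Fcgr3, 23 with Fcgr4 and 73 with Fcer1g. Among the 3 nearest to each member were Pdxk, Rab2b and Clec4a1 for Fcgr1, Nrd1, Sec23ip and Tsku for Fcgr2b, and Hs1bp3 and Hadha for Fcgr3. They were Adap2os, Sirpb1c and Srp72 for Fcgr4 and Nus1, Pbx2 and Hnrnpa1 for Fcer1g. Over the 3 nearest to each member r ran from 0.9743 to 0.9963, and none of these genes was called between the groups with or without the block, where limma's smallest adjusted p was 0.696.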

How the data were processed

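Messenger RNA of 8 libraries was analysed from gene tables deposited by the authors. FPKM is the unit the deposited values fit best; it is not named in the sources used here. Series and per-sample files matched in all 8 libraries, and replicate 4 has a table of its own. Per the submitters' processing notes, the tools were DESeq2 1.34.0, HISAT2 and featureCounts from Subread, and the build was mm10, with no role given. In replicate 4, 98.55% and 98.78% of low values (20 reads or fewer) fell on whole reads to within 0.01 read, against 4.76% to 6.14% in replicates 1 to 3, whose depth is therefore unknown.

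Genes reaching 1 FPKM in 3 or more of the 6 libraries of replicates 1 to 3 were tested with limma 3.58.1 in R 4.3.3 (trend, group as the only term) on log2(FPKM + 1), two-sided, with Benjamini-Hochberg adjustment. Differences on that scale understate changes of low genes. Deviations from group means correlated at 0.59, 0.25 and 0.52 between libraries of the same replicate number and at -0.53 to -0.01 otherwise. Part of that contrast is built in, because deviations from a group mean cancel out within the group for each gene. A positive correlation between same-numbered libraries therefore makes the other correlations lean negative. The correlations also come from the same values as the blocked fit. Same-numbered libraries were treated as pairs, although the labels do not state a pairing. A fit blocked on the replicate number is given where named. Fold values are ratios of FPKM within a pair. Alternatives were other pseudocounts, filters, scalings, all 8 libraries, single libraries or pairs left out, and limma without the variance trend.

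Symbols, positions and transcripts came from GENCODE M21 (GRCm38) and promoters from RefSeq (GRCm38.p6), where all 5 members matched. Coding sequences were aligned with Biopython 1.88. The members, gene lists and rules were chosen with earlier results of these data known. Named genes were the members, up to 4 called genes of each pathway list or else the 2 with the smallest p with the block, and the 3 genes of at least 5 FPKM nearest each member by Pearson correlation; some genes that this rule names are not reported here. Markers of monocytes, neutrophils, and T and NK cells were also summarised. Over replicates 1 to 3 these summed to 9450 to 20300 FPKM, 122 to 224 FPKM and 8.69 to 15.1 FPKM. Nearly all of the monocyte sum was Chil3, at 9240 to 20200 FPKM, and the next highest, Ly6c2, was at 62.2 to 186 FPKM. Most of the neutrophil sum was S100a8 and Mmp8, and 7 of its 12 markers stayed under 1 FPKM in all 6 libraries. These sums therefore do not measure the amount of a cell type.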

Additional observations from a re-analysis of the deposited data

Results flagged for a closer look

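A sample far from the others was looked for with Dixon's ratio, the gap to the nearest value over the whole range, in 15 groups of 4 values (the level of each member in each treatment group, and its within-pair log2 differences), against Dixon's 95% critical value. Chance exceeds it in about 1 of 20 groups, and 3 of the 15 did. The level groups mix values of the separately made tables, so that rate cannot judge them. The within-pair difference of Fcgr2b in replicate 1, at 0.00, lay apart from 0.09, 0.10 and 0.10 in replicates 2, 3 and 4 (ratio 0.956). The level of Fcgr3 in replicate 4 lay apart from replicates 1 to 3 with vehicle (307 FPKM against 143 to 158, ratio 0.908) and with S100A8/A9 (300 FPKM against 135 to 153, ratio 0.887). Replicate 4 comes from the separately made table, so this difference in level cannot be told apart from the difference between tables.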

How the results depend on the processing

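The number of members called was 0 under all alternatives run. The count over all genes, 0 without the block, was 59 with the replicate block (57 higher, 2 lower). It was 3 when the block went with any of quantile normalization, upper-quartile or median-of-ratios scaling. Over all 8 libraries the count was 0, both with the replicate block and with a term for the table. Leaving out single libraries or pairs gave 0 to 95 genes: 1 without vehicle replicate 2 and 0 without any other single library, and with the block 42 without replicate 1, 95 without replicate 2 and 5 without replicate 3. Fcgr1 and Fcer1g kept a positive difference under all alternatives run. That of Fcgr1, 0.292, was 0.239 over all 8 libraries. However, that of Fcer1g, 0.102, was 0.045 with quantile normalization, 0.051 over all 8 libraries and 0.057 without vehicle replicate 3. The log2 difference of Fcgr4, 0.003, became -0.049 under quantile normalization, -0.018 under upper-quartile and -0.020 under median-of-ratios scaling, each with or without the block, and -0.017 when libraries were set to equal sums. With single libraries left out it ranged from -0.078 to 0.156, and without replicate 1 in the blocked fit it was -0.093. With libraries or pairs left out, that of Fcgr2b ranged from -0.073 to 0.188 and that of Fcgr3 from -0.083 to 0.010. Quantile normalization gave 0.002 for Fcgr2b and -0.105 for Fcgr3, whose unadjusted p in limma was then 0.309, or 0.0581 with the block. The causes were not tested. The other scalings moved the median of all genes by less than 0.1 on the log2 scale. Depth limits the counting precision in replicate 4 only as given there, and is unknown for the other libraries.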
